A study of Mus musculus with 14 samples.

Results

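The proteasome genes of mouse quadriceps were compared between HDAC3 knockout and wild-type animals. HDAC3 is a histone deacetylase that works within nuclear corepressor complexes and, in mouse liver, binds the genome in a daily rhythm. All rows of the deposited gene table whose symbol begins with Psma, Psmb, Psmc, Psmd, Psme, Psmf or Psmg followed by a number were taken, which gave 50 of 24354 genes. The knockout group (KO) held 3 RNA-seq libraries of HDAC3 knockout mice and the wild-type group (WT) 3 libraries of HDAC3 wild-type mice. All 6 came from resting male C57BL/6 mice aged 4 months on normal chow and a normal light/dark schedule, with no treatment. The muscle was taken at ZT10, which is 10 hours after lights on. The labels do not say which driver deleted Hdac3 or in which cells. They also do not say whether replicates are separate animals, so p-values measure only the spread between these libraries, which may be technical. The name proteasome subunit covers most of the 50 but not all: 7 encode assembly chaperones, 5 activators and 1 an inhibitor. Psmc3ip encodes a meiotic recombination protein that is not a proteasome subunit. Of the 14 samples of the series the other 8, from other assays, were not analysed here.

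The proteasome is the main protease for proteins tagged with ubiquitin. Its barrel-shaped 20S core is built from rings of alpha subunits, which gate the entry, and rings of beta subunits, of which Psmb5, Psmb6 and Psmb7 carry the standard active sites. The 19S regulator caps the core. Its base holds a ring of ATPases (Psmc genes) that unfold substrates, and its lid removes the ubiquitin chain. Under interferon, and in immune cells at rest, Psmb8, Psmb9 and Psmb10 take the places of the standard catalytic subunits and form the immunoproteasome, which favours peptides for antigen presentation. In muscle the ubiquitin-proteasome pathway degrades myofibrillar proteins during atrophy.

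Transcription factors NFE2L1 and NFE2L2 are known to act on proteasome genes through antioxidant response elements, and NF-Y binds CCAAT boxes. Promoter windows from RefSeq (GRCm38.p6, 250 bases before to 50 bases after the start) were found for 42 of the 50 genes. Close to the start, matches to the element lay at -47 in Psmb5, -31 in Psmd9, -9 in Psmb6 and -7 in Psme4. The windows of the 4 proteasome genes that passed a test described below are shown, with those of the standard catalytic subunits Psmb5 and Psmb6. Each is given 5′ to 3′ on the gene's own strand, and capitals mark matches to TGACNNNGC or CCAAT on either strand.
Psma6, chr12:55398575-55398874, plus strand: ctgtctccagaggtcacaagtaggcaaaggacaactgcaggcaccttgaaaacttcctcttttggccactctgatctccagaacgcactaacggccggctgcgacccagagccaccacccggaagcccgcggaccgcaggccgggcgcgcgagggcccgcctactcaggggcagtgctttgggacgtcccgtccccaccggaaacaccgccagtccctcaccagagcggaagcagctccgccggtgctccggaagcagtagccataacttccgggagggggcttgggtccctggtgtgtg
Psmd12, chr11:107479278-107479577, plus strand: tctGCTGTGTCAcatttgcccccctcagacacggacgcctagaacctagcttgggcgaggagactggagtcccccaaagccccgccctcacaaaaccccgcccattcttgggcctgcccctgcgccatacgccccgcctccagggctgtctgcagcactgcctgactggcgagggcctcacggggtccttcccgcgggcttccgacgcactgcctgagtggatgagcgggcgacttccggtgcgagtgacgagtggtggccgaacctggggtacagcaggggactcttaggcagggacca
Psmd8, chr7:29180624-29180923, minus strand: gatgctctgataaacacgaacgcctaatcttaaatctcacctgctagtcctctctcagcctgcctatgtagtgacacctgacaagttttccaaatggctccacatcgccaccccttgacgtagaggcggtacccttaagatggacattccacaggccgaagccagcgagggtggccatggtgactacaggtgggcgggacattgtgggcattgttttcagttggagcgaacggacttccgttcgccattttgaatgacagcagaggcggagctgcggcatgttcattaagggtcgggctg
Psmg4, chr13:34162714-34163013, plus strand: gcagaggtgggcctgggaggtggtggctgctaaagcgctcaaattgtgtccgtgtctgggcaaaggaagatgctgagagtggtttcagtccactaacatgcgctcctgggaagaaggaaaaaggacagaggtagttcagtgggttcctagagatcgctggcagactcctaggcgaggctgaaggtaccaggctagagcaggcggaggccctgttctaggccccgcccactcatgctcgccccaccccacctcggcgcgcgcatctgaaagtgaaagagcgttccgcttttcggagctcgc
Psmb5, chr14:54617946-54618245, minus strand: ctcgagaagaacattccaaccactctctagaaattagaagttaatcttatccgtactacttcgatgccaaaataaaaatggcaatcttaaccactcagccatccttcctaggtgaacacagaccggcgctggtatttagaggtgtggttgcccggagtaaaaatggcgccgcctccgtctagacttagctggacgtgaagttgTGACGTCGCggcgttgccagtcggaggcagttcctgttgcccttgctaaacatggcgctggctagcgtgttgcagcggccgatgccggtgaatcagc
Psmb6, chr11:70525107-70525406, plus strand: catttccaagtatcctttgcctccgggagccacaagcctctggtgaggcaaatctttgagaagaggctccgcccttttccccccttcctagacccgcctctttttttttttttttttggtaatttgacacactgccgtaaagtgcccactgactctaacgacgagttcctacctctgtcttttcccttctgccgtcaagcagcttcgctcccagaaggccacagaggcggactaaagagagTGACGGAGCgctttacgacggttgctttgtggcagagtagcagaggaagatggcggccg
Of the 4 genes that passed a test, only Psmd12 has a match to TGACNNNGC in its window, at -247 from the start, on the opposite strand. A second Psma6 window at an upstream start holds 2 CCAAT matches. TGACNNNGC stood in the windows of 6 of 42 members (14.3%), namely Psmb5, Psmb6, Psmc6, Psmd9, Psmd12 and Psme4, against 14% of 27025 genes in the promoter table and 17.5% of the 8020 tested genes found in it. CCAAT stood in 15 of 42 (35.7%), against 41.1% and 42.8%. The members' shares lay near or below both backgrounds, and the match of a few letters is no evidence of binding.

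Levels are FPKM, that is sequenced fragments corrected for the length of the gene and the size of the library, and can be compared between genes. Hdac3 itself, the check of the labels, was at 5.51, 6.29 and 8.16 FPKM in KO libraries and at 33.3, 31.0 and 23.7 FPKM in WT libraries, a log2 change of -1.99 ± 0.17 (SE; limma adjusted p = 0.00632). Genes were tested with limma on log2(FPKM + 1) when their mean over the 6 libraries reached 1 FPKM, and called at a Benjamini-Hochberg adjusted p under 0.05; the q-value of the authors' deposited table, called under 0.05, was set beside it. FPKM sums were 464777 to 495099 in KO and 454359 to 484510 in WT libraries. Judged from the spacing of the lowest values, KO replicates 1 and 3 were the shallowest, at 0.660 and 0.674 of the depth of WT replicate 1. WT replicate 2 stood apart by neutrophil genes, with a sum of 479 FPKM over 6 markers against 3.39 to 9.43 FPKM in each other library.

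The proteasome genes were among the more strongly expressed genes of the muscle, with levels that differed widely by role. The 50 genes together held 0.690% ± 0.0491 of all FPKM in KO and 0.643% ± 0.0120 in WT libraries (SD, n = 3 each). The 14 standard core subunits lay between 45.8 FPKM (Psma5) and 305 FPKM (Psmb7) in KO means and between 51.7 and 282 FPKM for the same genes in WT means. The 17 regulator subunits ran from 17.2 (Psmd3) to 210 FPKM (Psmd8) in KO and from 18.95 to 142 FPKM for these in WT. Subunits present once per ring thus had transcript levels up to 6.66-fold apart in the KO core and 5.46-fold apart in the WT core. Immunoproteasome subunits and assembly chaperones lay lower, the chaperones with means of 3.64 to 17.2 FPKM in KO and 3.51 to 15.3 FPKM in WT. The germ-line alpha subunit Psma8 reached at most 0.129 FPKM and the thymic beta subunit Psmb11 at most 0.0947 FPKM in any library, so neither was tested, which left 48 genes. The order of levels was much alike in both groups (Spearman's rho = 0.985 across the 50 genes, which are not independent replicates).

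**Figure D1:**
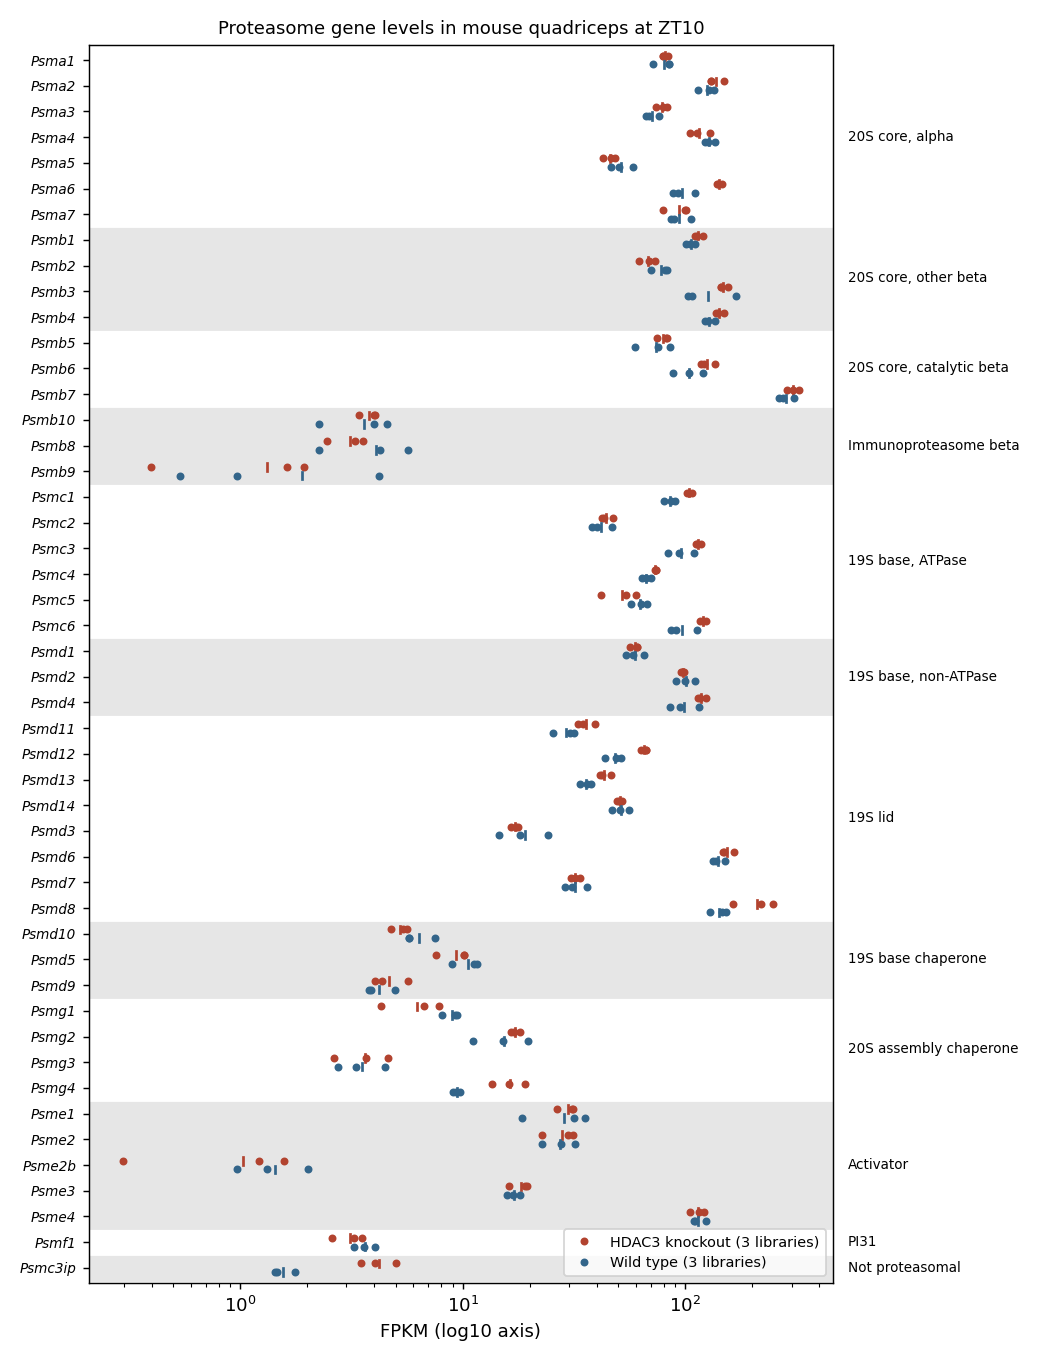
FPKM of 48 proteasome genes on a log10 axis, by role, with 3 KO libraries (red) above 3 WT libraries (blue) per gene; points are libraries and short lines group means. Core and 19S genes lie between 14.6 and 324 FPKM while the immunoproteasome genes Psmb8, Psmb9 and Psmb10 lie below 6 FPKM in every library.

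Few of these genes were called. Limma called 3 of 48 as higher in KO and none as lower, where 2.3% of all 10501 tested genes were called higher and 1.34% lower, 3.65% in either direction. The 3 were Psma6, Psmg4 and Psmc3ip, so 1 was a subunit, 1 an assembly chaperone and 1 not a proteasome gene. At an unadjusted p under 0.05 limma counted 9 higher and 1 lower, against 11% and 8.68% of all tested genes. The deposited q-value also called 3 higher and none lower among the 46 members the authors tested, against 5.9% and 4.94% of the 9204 genes they tested, but these were Psma6, Psmd8 and Psmd12. Only Psma6 was called by both. The KO and WT libraries did not overlap for 12 members with KO higher and 2 with KO lower, against 14.2% and 11.9% of tested genes. A positive log2 change was found for 32 of the 48, against 50.3% of tested genes. The median log2 change of the 48 was 0.10, against 0.00 for all tested genes. In whole muscle, fewer cells of a type and less RNA per cell cannot be told apart.

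**Figure D2:**
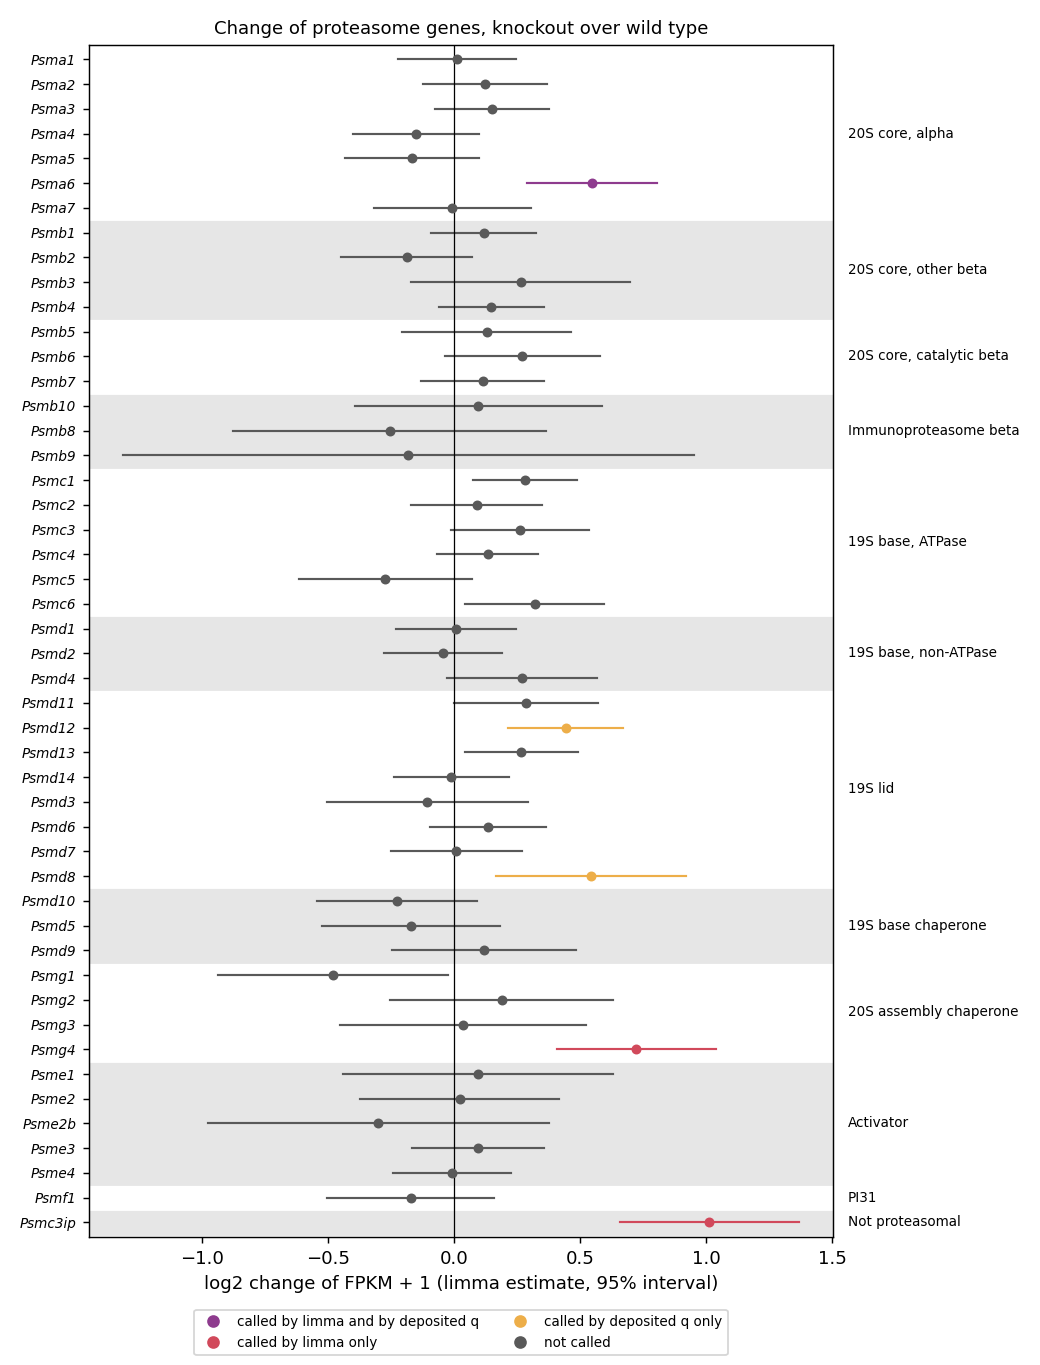
Limma estimates of the log2 change of FPKM + 1, KO over WT, with 95% intervals, for 48 proteasome genes by role; colours show which rule called a gene. Psma6 is called by both rules, Psmg4 and Psmc3ip by limma only, Psmd8 and Psmd12 by the deposited q-value only, and most intervals include 0.

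Core and 19S genes had small and mostly positive changes, and so, to a lesser degree, had genes in the same range of levels. Of the 31 genes, 23 had a positive log2 change, the median was 0.13 (1.09-fold), and 10 had KO libraries that all exceeded the WT libraries, with none the other way round. Among the 2385 tested genes whose mean lay in the same range, 18.1 to 294 FPKM, 60.1% had a positive change, the median was 0.07 (1.05-fold), and 24.5% had all KO libraries above all WT libraries and 11.7% all below. That background, chosen after the values were seen, is closer to the 31 genes than is the background of all tested genes. It includes the 31 genes themselves and shares only the ends of their range, so levels within the range were not matched. Of the 31 core and 19S genes limma called 1 higher and none lower, with 7 higher at an unadjusted p under 0.05, and the deposited q-value called 3 higher. In the background limma called 5.07% higher and 1.8% lower, 20.3% were higher at an unadjusted p under 0.05, and the deposited q-value called 10.1% higher. For the 30 core and 19S genes that limma did not call, 95% intervals of the log2 change had a median half-width of 0.25, and for 25 of them the interval lay within a 1.5-fold change in either direction.

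Psma6, an alpha subunit, was the most changed core subunit. It stood at 147, 139 and 140 FPKM in KO libraries and at 111, 93.0 and 87.8 FPKM in WT libraries. Every KO library exceeded every WT library. The mean was 142 ± 4.36 FPKM in KO and 97.1 ± 11.9 FPKM in WT (SD, n = 3 each), a log2 change of 0.55 ± 0.11 (SE; limma adjusted p = 0.0425; deposited q = 0.00729). The limma call lay close to the threshold and was lost with libraries centred on their median (adjusted p = 0.0503), with upper-quartile scaling (0.0613) and without any 1 library other than WT replicate 1 (0.0870 to 0.172). The other 6 alpha subunits had log2 changes from -0.17 (Psma5) to 0.15 (Psma3), none of them called, and overlapping groups.

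The standard catalytic subunits had small positive changes that were not called. Psmb5, with the chymotrypsin-like site, was at 82.8, 81.9 and 74.4 FPKM in KO and at 59.4, 75.3 and 85.8 FPKM in WT libraries. Psmb6, with the caspase-like site, was at 121, 118 and 136 FPKM in KO and at 88.3, 104 and 120 FPKM in WT libraries. Psmb7, with the trypsin-like site and the highest level of the family, was at 324, 286 and 305 FPKM in KO and at 309, 276 and 262 FPKM in WT libraries. The groups overlapped for all 3, and only WT replicate 3 kept Psmb6 from separating. Their log2 changes were 0.13 ± 0.14, 0.27 ± 0.13 and 0.11 ± 0.10 (SE; limma adjusted p = 0.674, 0.308 and 0.605). Among the non-catalytic beta subunits, Psmb4 had all KO libraries above WT, at 142 ± 6.05 FPKM in KO and 128 ± 6.34 FPKM in WT (SD, n = 3 each), with a log2 change of 0.15 (limma adjusted p = 0.418). Psmb3 averaged 148 ± 6.34 FPKM in KO and 126 ± 36.4 FPKM in WT, where WT replicate 3 alone was at 168 FPKM. Psmb2 was the only beta subunit of the standard core with a negative change, -0.19 ± 0.11 (SE), and Psmb1 had 0.12 ± 0.09.

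In the 19S lid, Psmd8 and Psmd12 rose by the deposited q-value but not by limma. These were 2 of 8 lid genes, against 5.9% of the genes the authors tested and 10.1% of those in the same level range. At an unadjusted p under 0.05 limma gave 4 of the 8 higher and none lower. The shares higher were 11% of all tested genes and 20.3% of those in the level range. For 4 of the 8 all KO libraries exceeded all WT libraries, against 14.2% and 24.5%. Psmd8, a structural lid subunit, was at 248, 164 and 219 FPKM in KO and at 129, 152 and 146 FPKM in WT libraries. All KO libraries exceeded WT, but KO replicate 2 lay near the WT range. The log2 change was 0.54 ± 0.16 (SE; limma adjusted p = 0.120; deposited q = 0.00119), and it was 0.71 (adjusted p = 0.0558) without KO replicate 2. Psmd12, also a structural lid subunit, was at 63.3, 66.8 and 66.5 FPKM in KO and at 51.6, 43.7 and 49.0 FPKM in WT libraries. These groups were well apart, with a log2 change of 0.44 ± 0.10 (SE; limma adjusted p = 0.0559; deposited q = 0.0462). Psmd11 and Psmd13, further lid subunits, also had all KO libraries above WT. Psmd11 averaged 35.7 ± 3.38 FPKM in KO and 29.1 ± 3.37 FPKM in WT, and Psmd13 averaged 43.3 ± 2.70 FPKM in KO and 35.8 ± 2.07 FPKM in WT (SD, n = 3 each). Neither was called (limma adjusted p = 0.252 and 0.182). Psmd14, the deubiquitinating enzyme of the lid, was at 50.7 ± 1.39 FPKM in KO and 51.2 ± 4.43 FPKM in WT. Psmd3, Psmd6 and Psmd7 had log2 changes of -0.11, 0.13 and 0.01.

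No gene of the 19S base was called by either rule. Among the 9 base genes, limma gave 2 higher and none lower at an unadjusted p under 0.05, against 11% of all tested genes higher and 20.3% of those in the same level range. Of the 6 ATPase subunits, 4 had all KO libraries above all WT libraries, against 14.2% of all tested genes and 24.5% of those in the level range. Psmc1 averaged 104 ± 2.75 FPKM in KO and 85.5 ± 4.76 FPKM in WT, and Psmc6 averaged 120 ± 3.56 FPKM in KO and 96.7 ± 13.9 FPKM in WT (SD, n = 3 each), with log2 changes of 0.28 ± 0.09 and 0.32 ± 0.12 (SE; limma adjusted p = 0.140 and 0.191). Psmc3 and Psmc4 followed at 0.26 and 0.13, Psmc2 was at 0.09, and Psmc5 had the only negative value, -0.27 ± 0.15 (SE; limma adjusted p = 0.359). Psmc5 was at 41.9 FPKM in KO replicate 1, against 60.0 and 53.9 FPKM in the other KO libraries and 57.0 to 67.0 FPKM in WT libraries. The ubiquitin receptor Psmd4 averaged 118 ± 4.91 FPKM in KO and 98.4 ± 15.7 FPKM in WT, with WT replicate 3 (116 FPKM) inside the KO range. The scaffold subunits Psmd1 and Psmd2 had log2 changes of 0.01 and -0.04.

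Summed levels showed the same picture by role. The 17 regulator genes summed to 1445, 1337 and 1392 FPKM in KO and to 1230.0, 1153 and 1232 FPKM in WT libraries, which did not overlap. The 14 core genes summed to 1751, 1597 and 1678 FPKM in KO and to 1559, 1481 and 1594 FPKM in WT libraries, which were apart by only a few FPKM. The ratio of core to regulator sums was 1.21, 1.19 and 1.21 in KO and 1.27, 1.29 and 1.29 in WT libraries. A few abundant genes weigh on such sums: without Psmd8 the ratio averaged 1.42 ± 0.0514 in KO and 1.45 ± 0.0341 in WT (SD, n = 3 each) and the groups overlapped. Single libraries also weighed on the counts. KO replicate 1 held the highest value for 14 of the 31 core and 19S genes and WT replicate 2 the lowest for 13, whereas over all tested genes the shares were 17.9% and 12.6%. The part of these libraries in the small positive median was not tested beyond leaving each out, which gave medians for the core between 0.07 and 0.15 and for the regulator between 0.13 and 0.17.

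**Figure D3:**
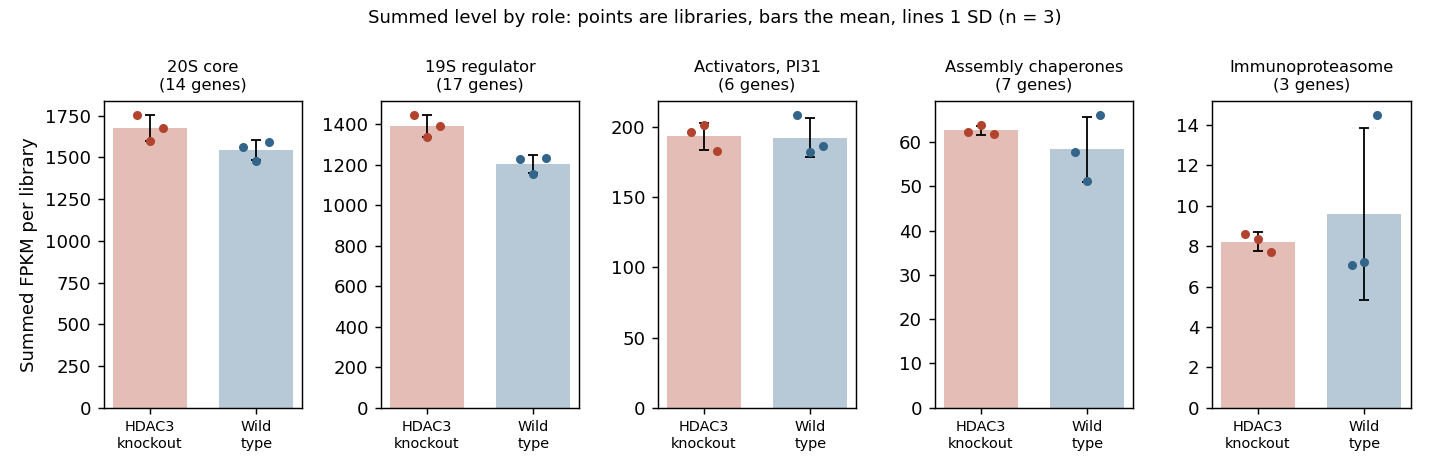
Summed FPKM per library for the genes of each role; points are libraries, bars group means and lines 1 SD (n = 3 per group), KO left of WT. The 19S sums of KO (1337 to 1445) lie above those of WT (1153 to 1232), while the immunoproteasome sum of WT ranges from 7.04 to 14.5 and spans the KO values.

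Immunoproteasome subunits stood at 0.293% to 7.16% of their standard counterparts and were not called by either rule. Psmb8, which replaces Psmb5, was at 3.58, 2.46 and 3.27 FPKM in KO and at 4.25, 2.27 and 5.71 FPKM in WT libraries. Psmb9, which replaces Psmb6, was at 1.63, 1.94 and 0.398 FPKM in KO and at 0.537, 0.969 and 4.21 FPKM in WT libraries. Psmb10, which replaces Psmb7, was at 3.42, 3.98 and 4.02 FPKM in KO and at 2.26, 3.98 and 4.57 FPKM in WT libraries. All 3 were highest in WT replicate 3, and the WT range enclosed all KO values of Psmb8 and Psmb10 and 2 of the 3 of Psmb9. The log2 changes were -0.26 ± 0.26, -0.18 ± 0.48 and 0.10 ± 0.21 (SE; limma adjusted p = 0.650, 0.880 and 0.850). None of the 3 passed at an unadjusted p under 0.05, and the deposited q-value called none of the 2 that the authors tested. Their intervals were wide: for Psmb9 the 95% interval of the log2 change ran from -1.32 to 0.95, so that a 1.5-fold change in either direction lay within it. Without WT replicate 3 the median log2 change of the 3 genes was 0.25, against -0.18 with all libraries.

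Within a library, Psmb8 stood at 4.32%, 3.01% and 4.40% of Psmb5 in KO and at 7.16%, 3.02% and 6.65% in WT. Psmb9 stood at 1.34%, 1.64% and 0.293% of Psmb6 in KO and at 0.608%, 0.93% and 3.52% in WT. Psmb10 stood at 1.05%, 1.39% and 1.32% of Psmb7 in KO and at 0.731%, 1.44% and 1.74% in WT. The groups overlapped in all 3 pairs. The log2 ratio differed between KO and WT by -0.44, -0.54 and 0.02, with exact two-sided permutation p of 0.3, 0.7 and 1 (0.9, 1 and 1 adjusted over the 3 pairs), where the smallest p that 3 against 3 libraries allow is 0.1. Without WT replicate 3 the difference for Psmb9 was 0.20, of the opposite sign, and so it was without KO replicate 3, at 0.24.

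**Figure D4:**
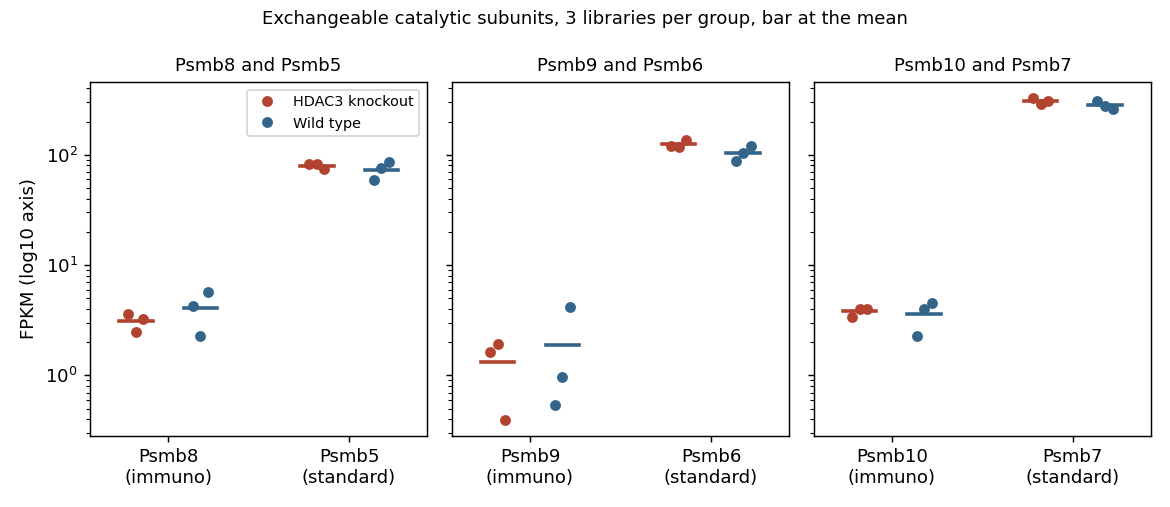
FPKM on a log10 axis of each immunoproteasome subunit and the standard subunit it replaces, KO (red) left of WT (blue), with 3 libraries per group and a bar at the mean. Psmb8, Psmb9 and Psmb10 lie at 0.293% to 7.16% of their partners, and the WT points spread more widely than the KO points in all 3 immunoproteasome genes.

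Of 17 tested interferon and antigen-processing genes 4 had a positive and 13 a negative log2 change, where 50.3% of all tested genes had a positive one, and the median was -0.33. Limma called none, with none higher and 4 lower at an unadjusted p under 0.05 (8.68% of all tested genes were lower by that measure). The deposited q-value called 2 of the 12 that the authors tested as lower, H2-K1 and Gbp2, against 4.94% of all genes they tested. H2-K1, a class I antigen-presenting molecule, was at 20.8, 21.1 and 19.3 FPKM in KO and at 22.3, 22.3 and 45.2 FPKM in WT libraries (deposited q = 0.0216; limma adjusted p = 0.389). Gbp2, an interferon-induced GTPase, averaged 3.41 ± 0.414 FPKM in KO and 5.47 ± 1.38 FPKM in WT (SD, n = 3 each; deposited q = 0.0397; limma adjusted p = 0.166). WT replicate 3 was the highest library for 10 of the 17 genes (58.8%), against 20.8% of all tested genes. It thus stood out for the immunoproteasome genes and for this list together. Changes were mostly negative in both sets, with Psmb10 positive. The part of that library in them was not tested beyond the values given above for the subunits without it.

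Of the 7 assembly chaperones 1 was called, by limma only, where limma called 2.3% of all tested genes higher. At an unadjusted p under 0.05 limma counted 1 higher and 1 lower, against 11% and 8.68% of all tested genes. The libraries did not overlap for 1 with KO higher and 2 with KO lower, against 14.2% and 11.9%. Psmg4, which acts with Psmg3 in building the alpha ring, rose. It was at 13.6, 19.1 and 16.2 FPKM in KO and at 9.08, 9.36 and 9.73 FPKM in WT libraries, and the groups were well apart. The log2 change was 0.72 ± 0.13 (SE; limma adjusted p = 0.0343), while the deposited q was 0.106. The limma call was lost with any 1 library left out (adjusted p = 0.0588 to 0.140). Its partner Psmg3 averaged 3.64 ± 0.990 FPKM in KO and 3.51 ± 0.883 FPKM in WT (SD, n = 3 each), a log2 change of 0.04. Psmg1, which with Psmg2 forms the other alpha-ring chaperone pair, was at 7.80, 6.69 and 4.28 FPKM in KO and at 9.27, 9.42 and 8.07 FPKM in WT libraries. All KO libraries were below WT, with KO replicate 3 the lowest, and the log2 change was -0.48 ± 0.19 (SE; limma adjusted p = 0.229; deposited q = 0.256), or -0.27 without KO replicate 3. Psmg2 had a log2 change of 0.19 ± 0.19 (SE). Of the base chaperones, Psmd10 (gankyrin) averaged 5.25 ± 0.452 FPKM in KO and 6.35 ± 1.01 FPKM in WT with no overlap and no call (limma adjusted p = 0.413), and Psmd5 and Psmd9 had log2 changes of -0.17 and 0.12.

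Activators and the inhibitor showed no call by either rule, and none passed at an unadjusted limma p under 0.05. Psme1 and Psme2, which form the interferon-inducible activator PA28, averaged 29.6 ± 2.68 and 27.9 ± 4.65 FPKM in KO and 28.6 ± 8.93 and 27.5 ± 4.74 FPKM in WT (SD, n = 3 each). Psme1 varied within WT, from 18.5 to 35.6 FPKM. Psme3, the nuclear form, had a log2 change of 0.10 ± 0.11 and Psme4, the activator PA200 and by far the most abundant of them, -0.01 ± 0.10 (SE), at 114 ± 7.94 FPKM in KO and 114 ± 8.12 FPKM in WT. Psme2b, a close copy of Psme2 whose reads can be confused with it, lay between 0.297 and 2.02 FPKM in all libraries. Psmf1, the inhibitor PI31, averaged 3.12 ± 0.486 FPKM in KO and 3.64 ± 0.396 FPKM in WT (log2 change -0.17 ± 0.14, SE).

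Psmc3ip had the largest change of the 48 genes. It was at 3.49, 5.04 and 4.04 FPKM in KO and at 1.47, 1.76 and 1.44 FPKM in WT libraries, and the groups were far apart. The ratio of means was 2.69, and the log2 change on the FPKM + 1 scale, which understates the change of so low a gene, was 1.01 ± 0.15 (SE; limma adjusted p = 0.0197). The deposited q was 0.195. The limma call was lost with any 1 library left out (adjusted p = 0.0535 to 0.0906). Psmc3ip overlaps Mlx in GRCm38.p6 and whether counting used strand is unknown, so reads of the pair may be shared. Mlx itself was at 5.52 to 7.52 FPKM in KO and at 6.09 to 8.65 FPKM in WT libraries (log2 change -0.22, limma adjusted p = 0.508), in the opposite direction.

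Genes that work beside the proteasome showed calls in small numbers. Over all tested genes limma called 2.3% higher and 1.34% lower, and 11% and 8.68% at an unadjusted p under 0.05. The deposited q-value called 5.9% higher and 4.94% lower of the genes the authors tested. Of 11 tested subunits, assembly and accessory factors outside the Psm symbols, limma called none (3 higher and 1 lower at an unadjusted p under 0.05) and the deposited q-value 1, Zfand5, which stimulates the proteasome. Zfand5 averaged 89.8 ± 5.66 FPKM in KO and 66.2 ± 7.76 FPKM in WT (deposited q = 0.0401; limma adjusted p = 0.0874). Of the 11, 4 had all KO libraries above WT and 2 all below, against 14.2% and 11.9% of all tested genes. The assembly factor Pomp and AI314180, the mouse Ecm29 gene, were among the 4, with log2 changes of 0.25 ± 0.09 and 0.31 ± 0.10 (SE) and no call. The 2 below were Shfm1, at 203 ± 7.14 FPKM in KO and 219.9 ± 5.65 FPKM in WT, and Ube3c, at 14.3 ± 0.550 and 17.8 ± 1.27 FPKM (SD, n = 3 each). Their log2 changes were -0.12 ± 0.09 and -0.30 ± 0.10 (SE), with no call. Of the 11 genes around NFE2L1, limma called none (1 higher and 1 lower unadjusted) and the deposited q-value 1, Nfe2l2, at 29.7 ± 3.99 FPKM in KO and 21.6 ± 1.41 FPKM in WT (deposited q = 0.0381). Nfe2l1 itself was at 127 ± 13.5 FPKM in KO and 116 ± 6.74 FPKM in WT (deposited q = 0.693). The list medians were 0.14 and 0.12, near that of the core and 19S genes.

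Of 12 substrate delivery genes both rules called Ubqln4, a ubiquilin shuttle, as lower: 16.1, 16.7 and 18.8 FPKM in KO and 28.9, 29.3 and 29.6 FPKM in WT libraries, a log2 change of -0.74 ± 0.10 (SE; limma adjusted p = 0.0182; deposited q = 0.00119). The limma call was lost without KO replicate 1, KO replicate 3 or WT replicate 2. The deposited q-value also called the autophagy receptor gene Sqstm1 as higher, at 281 ± 19.4 FPKM in KO and 208 ± 20.9 FPKM in WT (limma adjusted p = 0.0804). Each rule thus called 1 of the 12 lower, against 1.34% of all tested genes by limma and 4.94% by the deposited q-value. At an unadjusted p under 0.05 limma counted 3 higher and 1 lower, against 11% and 8.68%. Of 12 atrophy-related ubiquitin ligases, limma called 1 higher, Nedd4, at 182 ± 4.84 FPKM in KO and 130 ± 8.42 FPKM in WT (limma adjusted p = 0.0354), a call lost with any 1 library left out. The deposited q-value called this gene, Trim63 (MuRF1) and Cblb as higher, 3 of the 12, against 5.9% of the genes the authors tested. Limma called 2.3% of all tested genes higher. At an unadjusted p under 0.05 it counted 4 of the 12 ligases higher and none lower, against 11% and 8.68%. Trim63 averaged 201 ± 40.9 FPKM in KO and 116 ± 17.8 FPKM in WT (deposited q = 0.00119; limma adjusted p = 0.0633), whereas Fbxo32 (atrogin-1) averaged 64.6 ± 12.7 FPKM in KO and 66.4 ± 12.6 FPKM in WT (SD, n = 3 each). Median log2 changes were 0.16 for substrate delivery and 0.03 for the ligases.

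Markers placed the libraries as skeletal muscle, with summed fibre markers of 65640.0 to 80339 FPKM in KO and 66627 to 77071 FPKM in WT libraries. Of the 12 fibre markers limma called 1 as higher, against 2.3% of all tested genes. This was desmin (Des), at 960 ± 120 FPKM in KO and 499 ± 111 FPKM in WT (SD, n = 3 each; limma adjusted p = 0.0326; deposited q = 0.00119). The limma call held without WT replicate 3 and was lost without any other library. Des was also the only 1 of the 12 that the deposited q-value called higher, against 5.9% of the genes the authors tested. Lists of other cell types were measured because immune cells express the immunoproteasome. Macrophage markers (9 of 10 tested) summed to between 50.01 and 83.8 FPKM in KO and between 74.9 and 79.7 FPKM in WT libraries, and lymphocyte and leukocyte markers (1 of 10 tested) to between 1.39 and 2.88 FPKM in KO and between 1.93 and 4.26 FPKM in WT libraries. Of the second list Ptprc, found on all leukocytes, was at 0.936 to 1.70 FPKM in KO and 1.37 to 2.25 FPKM in WT libraries, and each of the other 9 stayed below 1 FPKM in every library. Cd3d, Cd79a and Nkg7 were at 0 in every KO library and in all WT libraries but 1, while Cd3e, Cd8a, Cd4, Cd79b and Ms4a1 were above 0 in at least 1 KO library. Limma called no gene of either list, none of them passed at an unadjusted p under 0.05, and the deposited q-value called none. In WT replicate 3, in which the immunoproteasome genes were highest, the macrophage sum was 74.9 FPKM, of which Lyz2 made up 36.9 FPKM. That library held the highest value of all 6 for 3 of the 9 tested macrophage markers, against 20.8% of all tested genes. These were the complement genes C1qa (9.50 FPKM), C1qb (6.06 FPKM) and C1qc (8.52 FPKM). KO replicate 1 also held the highest value for 3 of the 9. In WT replicate 3 Cd68 had its lowest value of all 6 libraries, at 1.66 FPKM. The part of macrophages in the immunoproteasome values was not tested. Of 3 tested neutrophil markers the deposited q-value called all as lower, against 4.94% of the genes the authors tested. The high values of that list stood in WT replicate 2, where Psmb8 was at 2.27 FPKM, its lowest value. Psmb9 and Psmb10, at 0.969 and 3.98 FPKM in that library, were not at their lowest. The part of neutrophils in these values was not tested. Endothelial, fibroblast, adipocyte and smooth muscle markers summed to 106 ± 5.82, 385 ± 85.1, 15.5 ± 12.9 and 36.2 ± 6.03 FPKM in KO and to 104 ± 11.1, 499 ± 89.3, 21.8 ± 6.75 and 29.6 ± 0.990 FPKM in WT (SD, n = 3 each). Of these lists 7 endothelial, 6 fibroblast, 3 adipocyte and 3 smooth muscle genes were tested, and limma called none. At an unadjusted p under 0.05 it counted 1 higher (smooth muscle) and 1 lower (fibroblast), against 11% and 8.68% of all tested genes. The deposited q-value called 2 of the 6 fibroblast genes, Col1a1 and Col1a2, as lower, against 4.94% of the genes the authors tested.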

How the data were processed

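RNA-seq of 6 quadriceps libraries was used. The deposited table holds FPKM per gene and library and the authors' p-values and q-values from their own comparison, per the file headers. TopHat2 and Cuffdiff were used, per the submitters' processing notes. No version is named in the sources used here. FPKM carry no counts, so depth was known only relative to WT replicate 1.

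FPKM were used as deposited. Genes with a mean of at least 1 FPKM over the 6 libraries (10501) were tested with limma 3.58.1 (R 4.3.3) on log2(FPKM + 1) with a trend, adjusted after Benjamini and Hochberg over all of them and called under 0.05; fold changes on this scale understate those of low genes. The authors' q-value under 0.05 was the second rule. Ratios of subunits were compared with exact permutation tests (SciPy 1.17.1, Python 3.11.15, pandas 2.3.3). In simulated KO and WT libraries (10501 genes) the limma test recovered 0% of 1.25-fold, 22% of 1.5-fold, 72% of 2-fold and 90% of 3-fold changes, with 5 false calls. The changes were planted on the log2(FPKM + 1) scale and only in genes above a set level. The immunoproteasome genes and Psmc3ip lay below that level, so these rates do not cover them.

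The members and lists were chosen with earlier results of these data known. The rule for values in every library took members called by either test, the 6 exchangeable catalytic subunits and then members by size of change up to 12. Other genes are named after their values were seen. Peak and nascent RNA files were not used. One of the 6 pathway lists and an overlap with a member are not reported here.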

Additional observations from a re-analysis of the deposited data

How the results depend on the processing

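No member was called lower by limma under any alternative. Of the 3 called higher, 1 remained without a filter on low values and none with the replicate block (0 calls); with 1 library left out the count was 0 to 1. Calls over all genes numbered 383, against 36 with the block, 247 without the filter and 19 (without WT replicate 2) to 208 (without WT replicate 1) with 1 library left out. The adjusted p under alternatives ran from 0.0376 to 0.172 for Psma6, from 0.0285 to 0.140 for Psmg4 and from 0.0187 to 0.0906 for Psmc3ip. Libraries of the same number had correlations of deviations of 0.037, 0.0524 and 0.0467, too low to pair them, although each correlated best with its own number, a hint from the data and not the design. In the 6 pathway lists the 1 higher call became 0 with upper-quartile scaling, the replicate block or no trend, 4 at an adjusted p under 0.1 and 7 by the deposited q-value, and was 0 to 0 with 1 library left out; the 1 lower call became 0 with the block, 2 at 0.1, 3 by the q-value and 0 to 1. In the 8 marker lists the 1 higher call became 0 without the filter or with the block, 3 at 0.1 and 0 to 1; none was lower, against 5 by the q-value. The cause of these shifts was not tested. With 1 library left out, median log2 changes ran from -0.36 to 0.25 for the immunoproteasome, -0.11 to 0.19 for assembly chaperones and -0.11 to 0.0489 for activators and inhibitor. The KO minus WT log2 ratio ran from -1.07 to 0.24 for Psmb9 over Psmb6 and from -0.35 to 0.28 for Psmb10 over Psmb7, which was -0.017 with 1 FPKM added. The difference of the core to 19S ratio was -0.078, against -0.036 without Psmd8 and -0.065 without Psmd8 and Psma6. Of 48 members 15 changed sign under some alternative, none of them called: with upper-quartile scaling Psma1 was at -0.0301, Psmd1 at -0.0344, Psmd7 at -0.0326 and Psme2 at -0.0190, and with median centring Psma7 was at 0.0012 and Psme4 at 6.6e-05. With 1 library left out the ranges were -0.0644 to 0.0510 (Psma1), -0.0628 to 0.10 (Psma7), -0.0139 to 0.25 (Psmb5), -0.54 to 0.34 (Psmb9), -0.13 to 0.25 (Psmb10), -0.0532 to 0.0777 (Psmd1), -0.11 to 0.0250 (Psmd2), -0.27 to 0.0722 (Psmd3), -0.0632 to 0.0986 (Psmd7), -0.0723 to 0.0504 (Psmd14), -0.18 to 0.27 (Psme1), -0.11 to 0.16 (Psme2), -0.0514 to 0.0496 (Psme4), -0.0115 to 0.38 (Psmg2) and -0.11 to 0.20 (Psmg3). Distances to peaks and protein identities were not run. Changes under 1.5-fold were mostly below what 3 libraries per group could call.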
